A study of Mus musculus with 4 samples.

Results

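Cytotoxic-type CD4 effector T cells were blood T cells that held CD4 and effector transcripts together with transcripts of granzymes or of NK-type receptors. They were chosen by raw counts of unique molecular identifiers (UMIs, each standing for 1 captured RNA molecule). A member had at least 1 UMI of *Cd4* and of *Cd3d*, *Cd3e* or *Cd3g*, no UMI of *Cd8a*, *Cd8b1* or *Foxp3*, and at least 3 of the 6 effector genes *Lgals1*, *S100a4*, *S100a6*, *Ccl5*, *Cd44* and *Cxcr3* detected. It also had at least 1 UMI of the 6 cytotoxic genes, namely the granzymes *Gzma*, *Gzmb* and *Gzmk* and the receptors *Klrk1* (NKG2D), *Klrc1* (NKG2A) and *Klrd1* (CD94). This rule was met by 145 of 5276 kept cells, and 115 CD4 effector cells met it except that they held none of the 6 cytotoxic genes. These 115 cells are called other CD4 effectors, and 433 cells that met the rule with CD8 in place of CD4 are called cytotoxic-type CD8 effectors.

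The cells came from C57BL/6 mice that all carried a subcutaneous MC-38 tumor, a syngeneic colorectal cancer line, and were 6 to 8 weeks old at the start. Blood was taken on day 18 after tumor challenge, enriched for T cells and sequenced from the 3′ end in single cells, with 1 library for each of 4 groups. Mice were untreated, received 150 µg anti-PD-L1 on days 10, 13 and 17, received 150 µg agonistic anti-OX40 with 25 µg of the TLR9 ligand CpG on day 7, or received both treatments (PDOX). The third group is labelled with OX40 alone and was taken as anti-OX40/CpG from the described regimen. Mouse, library and treatment cannot be told apart, so values between treatments carry counting error only and no test.

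CD4 T cells are best known as helpers that recognize peptides on MHC class II and steer other immune cells through CD40 ligand and cytokines. Some effector CD4 T cells instead carry granules with granzymes and perforin and can kill target cells directly, a state linked to the factors T-bet, Eomes and Runx3 and restrained by ThPOK (*Zbtb7b*), which fixes the helper lineage. Their receptors of the NK type include NKG2D, which activates killing, and NKG2A paired with CD94, which restrains it. Such cells have been described in antiviral and antitumor responses, also after OX40 stimulation. The values below are RNA and do not show protein. By flow cytometry of blood from PDOX-treated mice, the study reports NKG2A but no NKG2D on CD4 T cells that express ID2. It reports high granzyme B in CD8 but not CD4 T cells that carry an activation form of CD43.

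The lineage label rested on few molecules. *Cd4* was held at exactly 1 UMI by 84 of the 145 members (57.9%), at 2 or more by 61 (42.1%), and at most at 6. Among the other CD4 effectors 73 of 115 (63.5%) held exactly 1, and among CD4 T cells with none of the effector genes 228 of 283 (80.6%). A *Cd4* UMI was also found in 4 of 133 B cells (3.01%, 95% exact binomial interval 0.825 to 7.52) and in 90 of 1596 T cells with at least 3 UMIs of *Cd8a* and *Cd8b1* (5.64%). Conversely, 38 of the 433 cytotoxic-type CD8 effectors (8.78%) held a single *Cd8* UMI, so a CD8 T cell that lost these molecules at this depth may stand among the members. A further 63 cells met the rule but for a *Cd8a* or *Cd8b1* UMI, with a median of 3279 UMIs per cell against 2143 in the members. Another 8 cells were left out by *Foxp3* and 5 by the lack of a *Cd3* UMI.

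Of the 4 marker genes given for these cells, *Cd4*, *Gzmk* and *Klrd1* were part of the rule. *Nkg7*, which encodes a protein of cytotoxic granules and was not part of it, was detected in 85.5% of the members (95% interval 78.7 to 90.8), in 59.1% of the other CD4 effectors and in 98.6% of the cytotoxic-type CD8 effectors. The NK cell genes *Ncr1*, *Klrb1c*, *Klra8* and *Klri2* had no UMI in any member, and neither had the B cell genes *Cd79a*, *Ms4a1* and *Ebf1* or the monocyte gene *Csf1r*. The B cell gene *Cd79b* had 2 UMIs in the members after anti-OX40/CpG and 1 after PDOX, and *H2-Aa* had 2 after PDOX. Of 7 monocyte markers, 6 were detected in the members. Of 10 NK cell genes outside the rule, 6 were detected in the members, at a summed 2.11, 2.91 and 3.17 UMIs per 10000 after anti-PD-L1, after anti-OX40/CpG and after PDOX, and at 60.5 in the untreated library. The 7 monocyte markers summed to 9.13, 9.71 and 15.6, against 138 in the untreated library. That library had 2 members, 1 of which held 46 UMIs of *Lyz2*, 30 of *Tyrobp* and 15 of *Fcer1g*, genes of myeloid cells, and 44 of *H2-Aa*. This cell goes against its label. In the 4 other CD4 effectors of the untreated library, the monocyte markers summed to 654 UMIs per 10000 and the NK cell genes to 93.8. Without cells holding NK gene UMIs, members were 1 of 3 CD4 effectors there. Neither the untreated nor the anti-PD-L1 library had enough cells in each subset to enter the tests. The 9 genes of a regulatory T cell list, which leaves out *Foxp3*, were all detected in the members. Over all libraries they summed to 11.8 UMIs per 10000, against 12.1 in the other CD4 effectors and 6.73 in the cytotoxic-type CD8 effectors. Whether regulatory T cells without a *Foxp3* UMI stood among the members was not tested. Genes of gamma-delta T cells were not analysed here.

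Some cells lay close to the limits of the rule on either side. Members with exactly 3 effector genes numbered 37, and 11 cells just outside held a cytotoxic UMI with 2. PDOX gave 27 of the former and 5 of the latter. Of the members, 45 held a single cytotoxic UMI, beside the 115 other CD4 effectors with none. *Nkg7* stood at 34.9 UMIs per 10000 in the members with 3 effector genes and at 7.05 in the cells with 2, and at 27.8 in members with 1 cytotoxic UMI and 16.96 in cells without.

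Over all libraries together, cytotoxic transcripts were more common in CD4 T cells with 3 or more effector genes. A UMI of the 6 cytotoxic genes was found in 12.4% of 283 CD4 T cells with none of the effector genes (95% interval 8.77 to 16.8), in 17.2% of 227 cells with 1 and in 16.9% of 65 cells with 2. The share was 46.3% of 80 cells with 3, 60.0% of 105 with 4, 58.6% of 58 with 5 and 64.7% of 17 with 6. Median depth also rose, from 1408, 1634 and 1739 UMIs with 0, 1 and 2 effector genes. It was 1865, 2065, 2316 and 2356 with 3, 4, 5 and 6. The summed level followed the same step, from 1.02, 1.23 and 1.21 UMIs per 10000 with 0, 1 and 2 effector genes to 17.9, 17.8, 9.94 and 11.4 with 3, 4, 5 and 6. The step at 3 effector genes came mainly from PDOX, where 62.8% of 43 such cells held a cytotoxic UMI at 33.0 UMIs per 10000, against 28.6% of 28 at 2.70 after anti-OX40/CpG and 25% of 8 at 0.95 after anti-PD-L1. Over all cells with 3 to 6 effector genes, these libraries stood at 63.8%, 43.8% and 42.9%, against 11.3%, 14.3% and 10.4% of cells with no effector gene. In B cells, which do not express these genes, the share was 4.51% of 133 (1.67 to 9.56) at a median of 1256 UMIs.

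The cytotoxic type made up a larger share of CD4 effectors after PDOX than in the anti-OX40/CpG library. Members were 2 of 6 CD4 effectors in the untreated library (33.3%, 95% exact interval 4.33 to 77.7), 6 of 14 after anti-PD-L1 (42.9%, 17.7 to 71.1), 35 of 80 after anti-OX40/CpG (43.8%, 32.7 to 55.3) and 102 of 160 after PDOX (63.8%, 55.8 to 71.2). The intervals of the last pair missed each other narrowly, each stands for 1 library, and they overlapped under 5 alternatives, namely thinning, leaving out cells with NK gene UMIs, at least 2 cytotoxic UMIs, at least 4 effector genes and at least 2 *Cd4* UMIs. Of all CD4 T cells, the members were 2.02%, 3.09%, 13.7% and 35.7% in the same order, and of all kept cells 0.255%, 0.419%, 2.25% and 6.77%. In CD8 effectors the cytotoxic type already formed 75.9% in the untreated library and 86.5%, 86.0% and 90.2% in the treated ones. With every cell thinned to 750 UMIs before the cytotoxic genes were read, the share of CD4 effectors was 27.8% (18.3 to 39.1) after anti-OX40/CpG and 46.2% (38.2 to 54.3) after PDOX, and 4 of the 260 CD4 effectors were too shallow to enter.

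**Figure D1:**
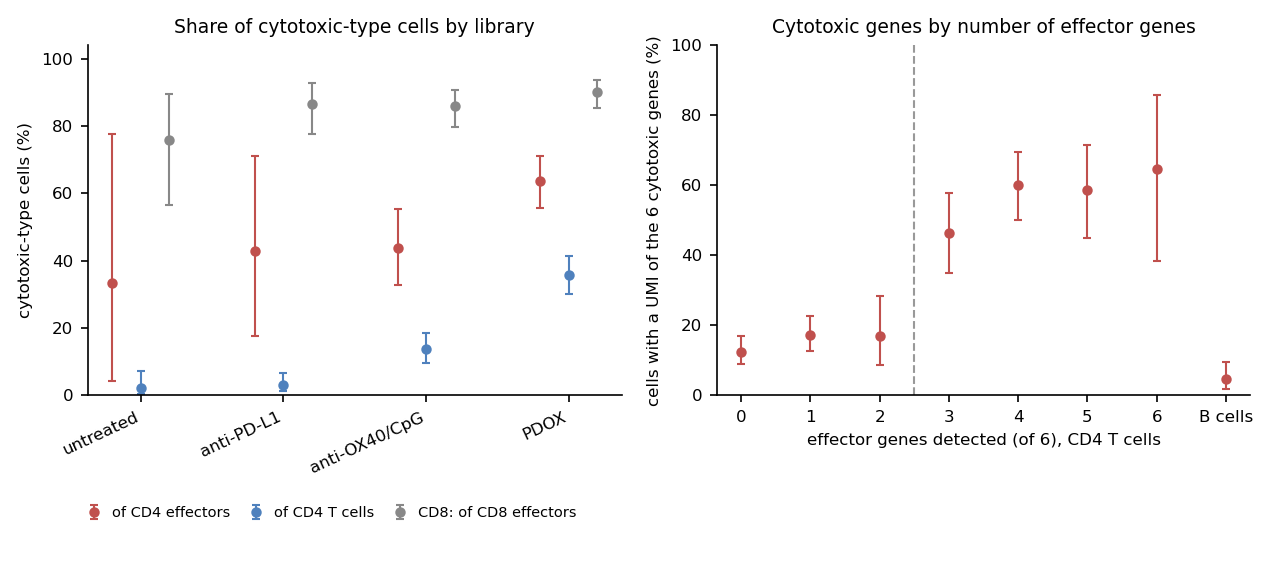
Left, share of cytotoxic-type cells (percent, points with 95% exact binomial intervals) in each library, of CD4 effectors, of CD4 T cells and, for CD8, of CD8 effectors; the PDOX library is highest in each, at 63.8%, 35.7% and 90.2%. Right, percent of CD4 T cells with a UMI of the 6 cytotoxic genes by the number of effector genes detected, and of B cells, with the rule's limit dashed; over all libraries together the share steps from 16.9% at 2 effector genes to 46.3% at 3.

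Most members met the rule through a single cytotoxic gene. Of the 145 members, 80 held 1 of the 6 genes, 40 held 2, 19 held 3, 3 held 4, 3 held 5 and none held all 6. *Klrd1* was found in 46.9% of members and *Klrk1* in 42.8%, against 22.8% for *Gzma*, 20.7% for *Gzmb*, 17.9% for *Gzmk* and 17.2% for *Klrc1*. The pair *Klrk1* and *Klrd1* stood together in 26 members. Receptor UMIs without a granzyme UMI were found in 77 members, a granzyme without a receptor in 34 and both kinds in 34. Both kinds stood together in 28 of 102 PDOX members and in 2 of 35 members after anti-OX40/CpG.

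**Figure D2:**
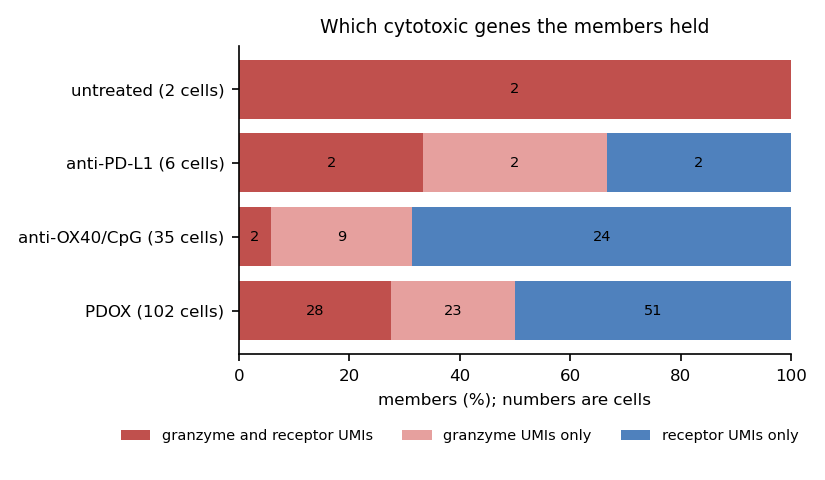
Percent of the members of each library (bars, with cell numbers printed) that held granzyme and receptor UMIs, granzyme UMIs only or receptor UMIs only. Receptor-only members were 24 of 35 after anti-OX40/CpG and 51 of 102 after PDOX.

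Of the 6 cytotoxic genes, granzyme A differed most between the PDOX members and those after anti-OX40/CpG. *Gzma*, a tryptase of cytotoxic granules, had 1 UMI in the untreated members, 29 after anti-PD-L1, 3 after anti-OX40/CpG and 376 after PDOX, or 1.29, 20.4, 0.364 and 16.6 UMIs per 10000. Single cells weighed heavily in these levels. After anti-PD-L1, 1 member held 25 of the 29 UMIs, and the highest PDOX members held 54, 51 and 39. *Gzma* was detected in 3 of 35 members after anti-OX40/CpG and in 26 of 102 after PDOX. *Gzma* and *Klrd1* stood together in 14 PDOX members and in none after anti-OX40/CpG. These values were part of the rule and are a description.

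The other granzymes and receptors differed less between the pair of libraries. *Gzmb*, which triggers apoptosis in targets, stood at 2.57, 2.11, 0.607 and 1.23 UMIs per 10000 in members of the untreated library, after anti-PD-L1, after anti-OX40/CpG and after PDOX, and *Gzmk* at 0, 0, 2.43 and 1.63. Of the receptors, *Klrk1* stood at 10.3, 2.81, 3.40 and 4.71, *Klrd1* at 0, 7.02, 4.37 and 5.68, and *Klrc1* at 0, 1.40, 1.21 and 1.54. The untreated and anti-PD-L1 values come from 2 and 6 cells.

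Among the effector genes of the rule, *Ccl5*, a chemokine stored by cytotoxic cells, was the most abundant at 81.05, 117, 97.4 and 198 UMIs per 10000 in the same order. *Lgals1*, encoding galectin-1, stood at 16.7, 40.0, 48.3 and 65.3, *S100a6* at 11.6, 23.2, 27.3 and 33.3 and *S100a4* at 16.7, 12.6, 29.5 and 30.6. *Cxcr3*, the receptor for interferon-induced chemokines, stood at 1.29, 2.11, 2.91 and 3.74, and *Cd44* at 1.29, 1.40, 2.06 and 1.45.

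A few cells carried much of the cytotoxic RNA. The 6 genes summed to 873 UMIs in the members, with a median of 3 and a maximum of 55 per cell, and the highest 10% of members held 47.0% of them. Of the 10 highest members 9 came from PDOX and 1 from anti-PD-L1, and *Gzma* was the most abundant of the 6 genes in all 10. The first of them held 54 UMIs of *Gzma*, 183 of *Ccl5* and 18 of *Nkg7*, with 2 of *Cd4*. All 10 held no UMI of *Ctla2a*, and *Ccl4* was found in 1 of them at 1 UMI. The median depth of PDOX members was 2146.5 UMIs and that of members after anti-OX40/CpG 2177.

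Outside the rule, cytotoxic-type cells were set apart from other CD4 effectors mainly by *Ifitm1*, *Ifitm2* and *Lgals3*. Of these, *Ifitm1* and *Lgals3* also stood higher in cytotoxic-type CD8 effectors than in CD8 effectors without cytotoxic genes. The anti-OX40/CpG and PDOX libraries had at least 10 cells in each of 4 subsets (CD4 and CD8 effectors with and without cytotoxic genes). Their UMIs were summed per library and subset and tested with the library as a block, with the 19 genes of the rule left out. With edgeR's quasi-likelihood test and Benjamini-Hochberg adjustment over 2292 genes, 5 genes were higher in the cytotoxic type (0.218% of those tested) and 2 lower (0.0873%) at an adjusted p under 0.05. The median log2 fold change of all genes tested was 0.00084. Members and other CD4 effectors of these libraries had median depths of 2177 and 2113 UMIs after anti-OX40/CpG and 2146.5 and 1811 after PDOX.

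The interferon-induced transmembrane genes restrict the entry of viruses and lie side by side, with the starts of *Ifitm1*, *Ifitm2* and *Ifitm3* within 54.8 kb. *Ifitm1* stood at 12.5 UMIs per 10000 in the members after anti-OX40/CpG and at 17.3 after PDOX, against 0.515 and 3.87 in the other CD4 effectors of these libraries. Both member levels lay above both levels of the other cells, with a log2 fold change of 2.76 ± 0.29 (SE) and an adjusted p of 2.2e-05. *Ifitm2* stood at 6.19 and 14.1 against 1.34 and 4.41, with a log2 fold change of 1.84 ± 0.29 and an adjusted p of 0.0017. *Ifitm3* stood at 1.58 and 2.33 against 1.23 and 1.26 and did not pass the test (log2 fold change 0.73 ± 0.43, adjusted p = 0.95). The 6 anti-PD-L1 members held no UMI of *Ifitm1*, and the 8 other CD4 effectors of that library held 1. *Ifitm2* and *Ifitm3* are also abundant in myeloid cells. After anti-OX40/CpG and PDOX, the 7 monocyte markers, which include *Ifitm3*, summed to 9.71 and 15.6 UMIs per 10000 in the members. In the other CD4 effectors they summed to 5.25 and 11.6. The 4 tested all had a log2 fold change above 0 (median 0.67), and none was called. Of the markers, *Lyz2* had 2 and 11 UMIs in the members and 1 and 3 in the other CD4 effectors. *Csf1r* had none in either. The 5 genes of a neutrophil list summed to 3 and 34 UMIs in the members, 24 of the latter from *S100a8*. In the other CD4 effectors they summed to 1 and 4. The part of such cells in the result was not tested. How reads shared between these similar genes were counted is not given in the sources used here.

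The starts of these genes are shown because 2 of the family's members led the comparison while the third did not pass it. Each window holds 250 bases before the RefSeq start and the first 30 after it, from RefSeq on GRCm38.p6, read 5′ to 3′ on the gene's strand: chr7:140967826-140968105 (plus strand), chr7:140955932-140956211 (minus strand) and chr7:141010715-141010994 (minus strand). Capitals mark matches to GAAANNGAAA, the core of an interferon-stimulated response element, which was searched on both strands.
Ifitm1: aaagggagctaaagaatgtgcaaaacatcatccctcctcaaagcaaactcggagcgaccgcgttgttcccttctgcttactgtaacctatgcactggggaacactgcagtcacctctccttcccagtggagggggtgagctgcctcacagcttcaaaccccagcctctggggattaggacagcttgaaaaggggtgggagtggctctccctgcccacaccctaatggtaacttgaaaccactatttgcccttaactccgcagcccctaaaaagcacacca
Ifitm2: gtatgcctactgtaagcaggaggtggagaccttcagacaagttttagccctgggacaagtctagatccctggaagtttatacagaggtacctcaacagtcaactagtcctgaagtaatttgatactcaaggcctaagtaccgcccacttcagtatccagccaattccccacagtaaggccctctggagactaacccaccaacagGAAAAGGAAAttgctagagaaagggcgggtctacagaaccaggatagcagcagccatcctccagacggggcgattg
Ifitm3: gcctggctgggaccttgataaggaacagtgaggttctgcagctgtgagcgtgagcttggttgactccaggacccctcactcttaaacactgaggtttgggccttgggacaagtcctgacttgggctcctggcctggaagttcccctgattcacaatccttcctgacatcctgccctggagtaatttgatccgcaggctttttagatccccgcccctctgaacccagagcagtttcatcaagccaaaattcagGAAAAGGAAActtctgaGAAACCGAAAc
The window of *Ifitm1* held no match, that of *Ifitm2* held 1 that begins 46 bases before the start, and that of *Ifitm3* held 2 that begin 3 and 20 bases after it, counting the first base as 1. Of 32851 such windows over all genes, 1077 (3.28%) held a match. A match is a description of these letters and not a site shown to be used in these cells.

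*Lgals3*, encoding the beta-galactoside-binding protein galectin-3, stood at 7.04 and 10.1 UMIs per 10000 in the members after anti-OX40/CpG and PDOX and at 2.06 and 3.42 in the other CD4 effectors. Its log2 fold change was 1.65 ± 0.22 with an edgeR adjusted p of 2.2e-05, and both member levels lay above both other levels. *Nkg7* stood at 24.99 and 44.3 against 12.7 and 24.2 (0.93 ± 0.20, adjusted p = 0.033), with the lower member level just above the higher level of the other cells. *Ctsd*, the lysosomal protease cathepsin D, stood at 9.34 and 11.2 against 3.91 and 7.03 (0.91 ± 0.20, adjusted p = 0.032). In the anti-PD-L1 library, *Ifitm2* stood at 0.702 UMIs per 10000 in the members and 1.01 in the other cells, the opposite order. These levels were 1 and 2 UMIs, with overlapping intervals. *Nkg7* stood at 17.5 in the members of that library and 6.56 in the other cells, *Lgals3* at 2.81 and 0.505 and *Ctsd* at 5.62 and 4.04.

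The lower genes belong to the naive and memory program. *Tcf7*, encoding TCF-1, stood at 2.06 and 1.72 UMIs per 10000 in the members against 4.01 and 4.41, with a log2 fold change of -1.17 ± 0.26 and an edgeR adjusted p of 0.033. *Dapl1*, a gene of naive-type T cells, stood at 0.485 and 0.22 against 3.81 and 0.270 (-2.29 ± 0.52, adjusted p = 0.033). The *Dapl1* difference came from the anti-OX40/CpG library, where 37 UMIs in 6 of the other CD4 effectors made up the level.

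**Figure D3:**
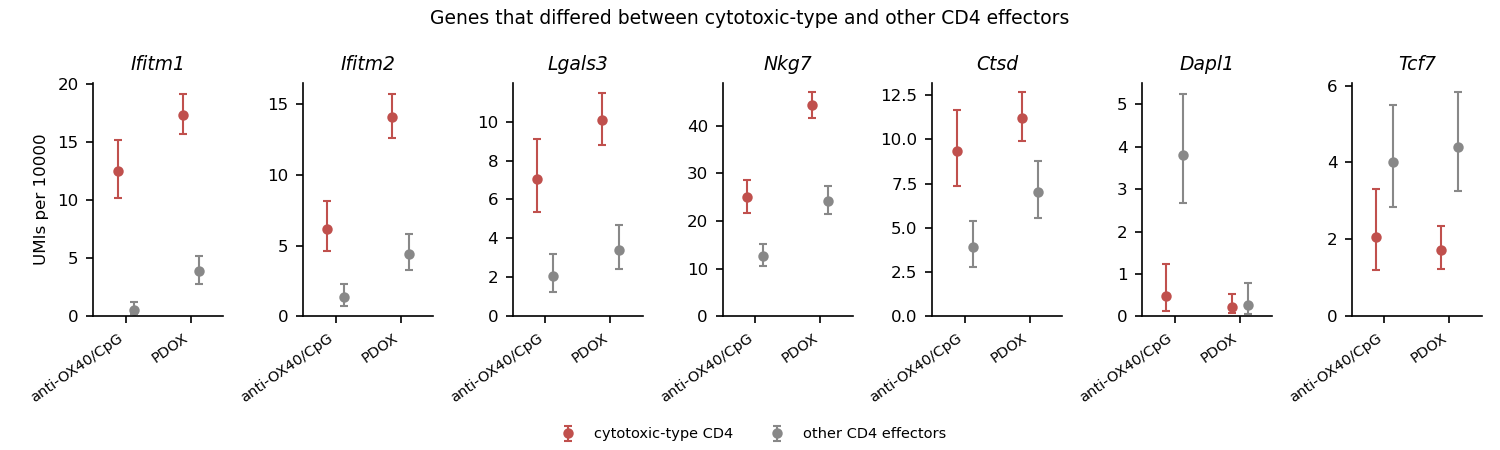
UMIs per 10000 (points, 95% Poisson intervals for counting error) of the 7 genes that differed, in cytotoxic-type and other CD4 effectors of the anti-OX40/CpG and PDOX libraries. *Ifitm1* is higher in the members of both libraries (12.5 and 17.3 against 0.515 and 3.87), and *Dapl1* differs visibly in the anti-OX40/CpG library only (0.485 against 3.81).

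Gene lists gave few calls in this comparison. Of 14 granule genes, 9 could be tested and 2 were higher (*Nkg7* and *Ctsd*), with a median log2 fold change of 0.47. Perforin (*Prf1*) was too sparse to test, with 2 UMIs in all members and none in the other CD4 effectors. Of 15 receptors of the NK type 6 were tested and none was called, with a median of 1.60. *Klrc2* (NKG2C) had 6 and 10 UMIs in the anti-OX40/CpG and PDOX members and none in any other CD4 effector, at an adjusted p of 0.068. *Klrg1*, a marker of terminal effector cells, had 18 and 29 UMIs in the members and 3 and 6 in the others (log2 fold change 1.83 ± 0.50, adjusted p = 0.18).

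None of 7 tested genes among 14 factors of cytotoxic and effector cells was called either, with a median log2 fold change of 0.60. *Zeb2*, which drives terminal effector differentiation together with T-bet, stood at 0 and 2.33 UMIs per 10000 in the members and 0.206 and 0.360 in the others (adjusted p = 0.54), and *Zbtb7b* had a log2 fold change of 2.23 ± 0.81 (adjusted p = 0.66). *Eomes* was found in 7 of 145 members and *Tbx21* in 17. Of 11 tested naive genes 2 fell, with a median of -0.71, and of 13 core effector genes *Lgals3* rose, with a median of 0.30. None was called of 6 tested Th1 genes (median 0.29), 9 helper and costimulatory genes (-0.22), 3 inhibitory receptors and related genes (0.30), 12 chemokine and homing genes (0.22), 6 interferon-induced genes (-0.55) or 6 cell cycle genes (0.22). *Gata3*, the 1 tested gene of 11 from other helper lineages, did not pass (-0.47 ± 0.27, adjusted p = 0.94).

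These calls rest on 2 libraries and 3 residual degrees of freedom, and without the library block 1 gene (*Lgals3*) was called, as with DESeq2. With the anti-PD-L1 library added, by taking libraries with at least 3 cells per subset, edgeR called none of 2017 genes, 112 of which had an unadjusted p under 0.05.

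The members were not uniform in these genes. This split was chosen after the values were seen and is a description. Granzyme UMIs were held by 11 members after anti-OX40/CpG and 51 after PDOX, and 24 and 51 members held receptor UMIs alone. *Ifitm1* was detected in 0 of 11 and 5 of 51 of the granzyme members but in 9 of 24 (37.5%) and 21 of 51 (41.2%) of the receptor-only members, against 2 of 45 (4.44%) and 3 of 58 (5.17%) of the other CD4 effectors. *Ifitm2* followed, in 1 of 11 and 8 of 51 granzyme members, 10 of 24 and 27 of 51 receptor-only members and 3 of 45 and 12 of 58 other cells. The *Ifitm1* and *Ifitm2* levels of the members thus lay mostly in the receptor-only cells of both libraries.

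*Ccl5* was found in 90.9% and 80.4% of granzyme members and 45.8% and 45.1% of receptor-only members. Its level was 229 and 319 UMIs per 10000 in the former and 12.4 and 80.998 in the latter. *Nkg7* differed less, at 31.2 and 52.3 UMIs per 10000 in granzyme members, 21.0 and 36.6 in receptor-only members and 12.7 and 24.2 in other CD4 effectors. After PDOX, *Zeb2* was found in 16 of 51 (31.4%) of the granzyme members against 6 of 51 (11.8%) of the receptor-only cells, *Cx3cr1*, a receptor of vessel-patrolling effector cells, in 15 against 6, *S1pr5* in 11 against 1, *Tbx21* in 12 against 3 and *Klrg1* in 12 against 4. After anti-OX40/CpG the 11 granzyme members held no *Zeb2*, *Cx3cr1*, *S1pr5* or *Tbx21* UMI, and 4 held *Klrg1*. *Cd44* was found in 3 of 11 and 6 of 51 granzyme members and in 12 of 24 and 22 of 51 receptor-only members. *Ccl5* and *Cd44* are both among the effector genes of which the rule asks for 3, so a cell without the first had to hold more of the others.

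**Figure D4:**
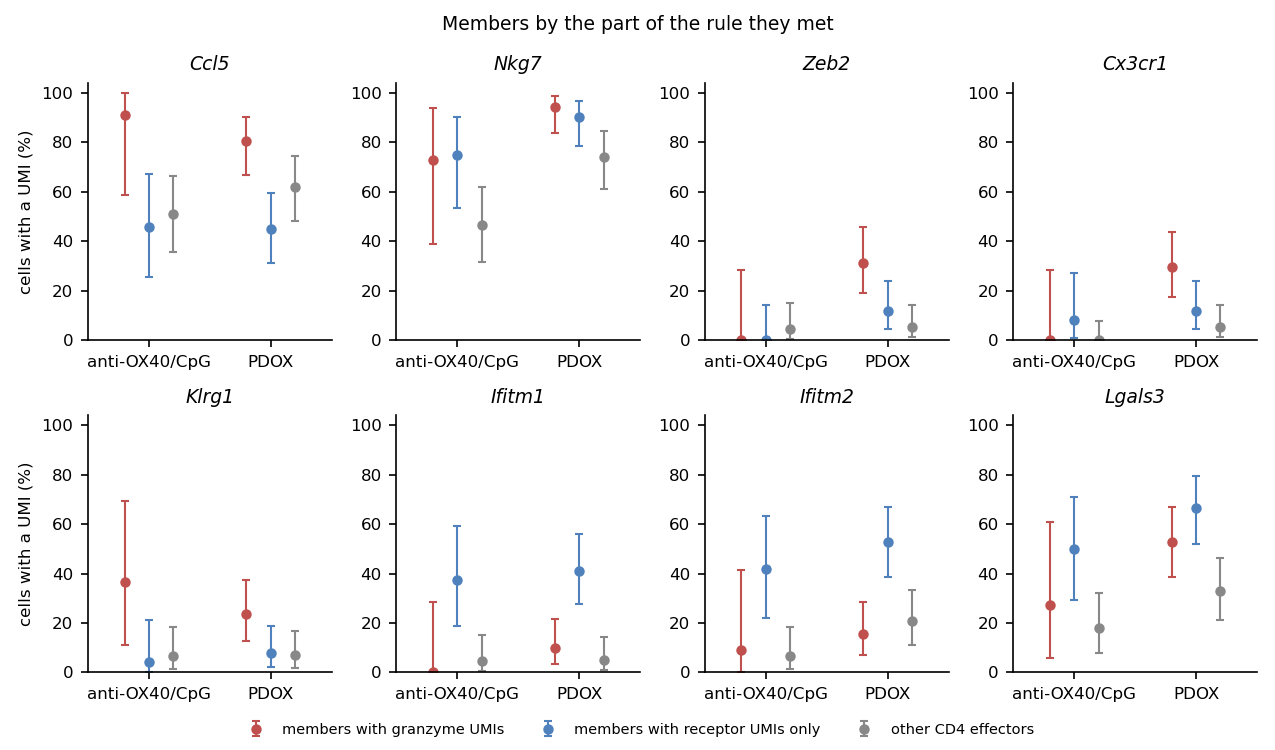
Percent of cells with a UMI (points, 95% exact binomial intervals) of 8 genes in members with granzyme UMIs, members with receptor UMIs only and other CD4 effectors of the anti-OX40/CpG and PDOX libraries. *Ifitm1* is most common in the receptor-only members (37.5% and 41.2%) and *Ccl5* in the granzyme members (90.9% and 80.4%).

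Against cytotoxic-type CD8 effectors of the same libraries, the members held more of several helper genes and less of several granule genes. By the same edgeR fit 23 of 2292 genes were higher in the CD4 cells (1.0%) and 29 lower (1.27%), with a median of 0.0019 over all genes tested. The lower genes were led by *Ccl4*, a chemokine released by activated cytotoxic cells, at 0.121 and 0.132 UMIs per 10000 in the members after anti-OX40/CpG and PDOX and 7.32 and 2.39 in the CD8 cells (log2 fold change -4.90 ± 0.44, adjusted p = 1.3e-09). *Ctla2a*, encoding a cysteine protease inhibitor, stood at 1.21 and 1.63 against 9.39 and 9.88 (-2.82 ± 0.21, adjusted p = 2.1e-11). In these libraries the groups did not overlap for either gene. In the anti-PD-L1 library, outside the test, *Ccl4* went the other way, with 7 UMIs in the 6 members (4.91 UMIs per 10000, 95% interval 1.98 to 10.1) and 2.03 per 10000 in the CD8 cells, while *Ctla2a* stood at 2.11 against 6.25.

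The difference held for cells selected on a granzyme. *Ccl4* was found in 1 of 11 and 3 of 51 CD4 members with a granzyme UMI, against 47 of 93 and 53 of 142 granzyme-holding CD8 effectors. *Ctla2a* was found in 4 of 11 and 13 of 51 against 65 of 93 and 81 of 142. These shares are a description chosen after the values were seen.

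Granule genes were lower in the CD4 cells, with 4 of 9 tested called lower, none higher and a median log2 fold change of -0.92. *Gzmm*, granzyme M, stood at 0.121 and 0.22 against 1.45 and 1.43 UMIs per 10000 (-3.00 ± 0.50, adjusted p = 0.00035), and *Nkg7* at 24.99 and 44.3 against 58.6 in both CD8 libraries (-0.94 ± 0.18, adjusted p = 0.0038). *Cst7*, the granule inhibitor cystatin F, stood at 0.849 and 1.67 against 5.51 and 3.01, and *Ctsw*, cathepsin W, was lower by a log2 fold change of -1.20 ± 0.23. *Prf1* had 0 and 2 UMIs in the members and 14 and 12 in the CD8 cells and was not tested.

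Of 6 tested receptors of the NK type 3 were lower, namely *Cd160* (log2 fold change -2.39), *Klre1* (-2.11) and *Klrc2* (-1.57), with a median of -1.32. The inhibitory receptor *Lag3* was lower too (-1.64 ± 0.43), as was the naive-type gene *Dapl1* (-2.39). The largest decreases also held *Wdr95* (-3.69) and *Mgst2* (-2.73), a microsomal glutathione transferase. Of 6 cell cycle genes *Tubb5* was lower (-0.67).

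The higher genes included those that mark helper T cells. *Cd40lg*, the ligand through which helper cells license B cells and dendritic cells, stood at 0.971 and 0.837 UMIs per 10000 in the members against 0.0568 and 0.069 in the CD8 cells (3.56 ± 0.75, adjusted p = 0.0058). *Zbtb7b* stood at 1.33 and 1.06 against 0.170 and 0.207 (2.43 ± 0.63, adjusted p = 0.025). Of 9 helper and costimulatory genes 3 were higher (*Cd40lg*, *Cd28* and *Cd6*), none lower, with a median of 0.85, and the helper factor *Gata3* was higher by 1.09 ± 0.27. No Th1 gene but *Cxcr6* (0.73 ± 0.19) was called among 6 tested.

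All 3 *Ifitm* genes were higher than in CD8 cells in the anti-OX40/CpG and PDOX libraries, but not after anti-PD-L1, which was outside the test. *Ifitm2* stood at 6.19 and 14.1 UMIs per 10000 against 1.02 and 1.17 (3.09 ± 0.27, adjusted p = 1.1e-07), *Ifitm3* at 1.58 and 2.33 against 0.227 and 0.368 (2.63 ± 0.42, adjusted p = 0.00035), and *Ifitm1* rose by 1.06 ± 0.21 (adjusted p = 0.0080). In the 6 anti-PD-L1 members, *Ifitm1* stood at 0 against 14.2 UMIs per 10000 in the CD8 cells of that library, *Ifitm2* at 0.702 against 2.68 and *Ifitm3* at 0.702 against 5.56. Of 13 core effector genes 6 were higher and none lower, with a median of 0.52. They were *Anxa1* (1.82), *Ly6a* (1.12), *Capg* (1.08), *Itgb1* (0.90), *S100a11* (0.66) and *Crip1* (0.55), and *Ly6a*, encoding Sca-1, stood at 10.6 and 14.6 against 3.29 and 7.56. Of 12 chemokine and homing genes *Itgb1*, *Itgb7* and *Cxcr6* were higher and *Ccl4* lower, with a median of 0.16. The increases also held *Smco4* (1.89) and *Ass1* (1.60), an enzyme of arginine synthesis. Of 6 interferon-induced genes on a list without the *Ifitm* genes none was called (median -0.30). DESeq2 called 10 genes and the fit without the library block 10, and thinning to 750 UMIs gave 16 calls among 826 genes tested, 12 of them shared with the 52.

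**Figure D5:**
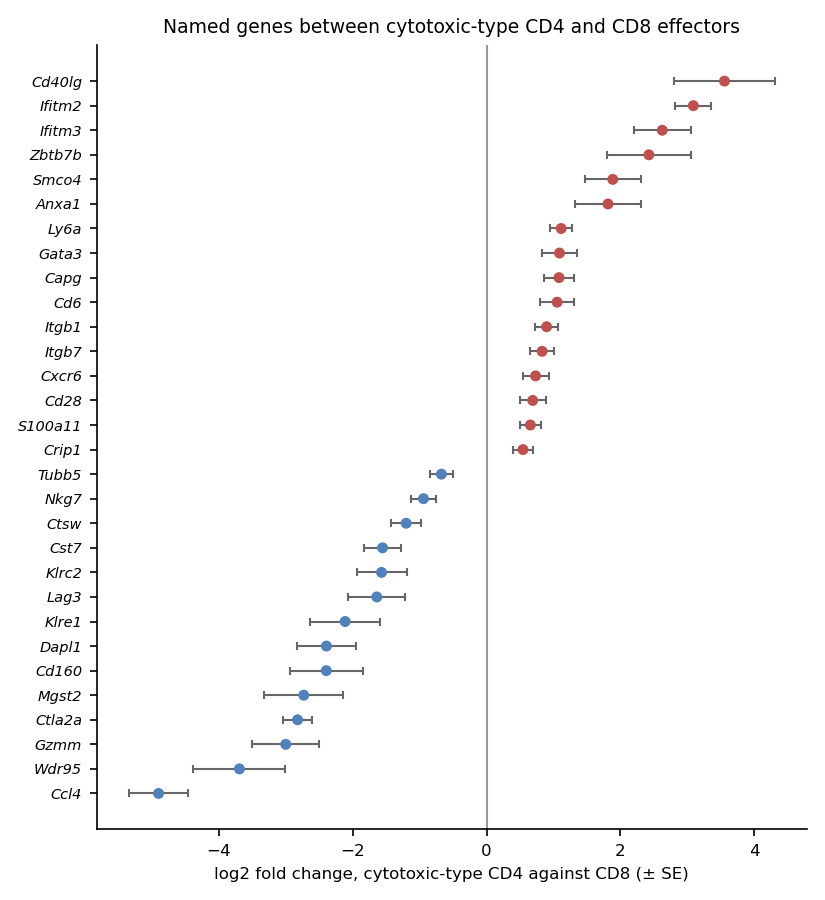
Log2 fold change (points, ± SE) of genes named in the comparison of cytotoxic-type CD4 and CD8 effectors, with positive values higher in CD4. *Ccl4* is lowest at -4.90 and *Cd40lg* highest at 3.56.

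Whether the cytotoxic type differed from other effectors alike in both lineages was tested as an interaction. No gene of 2292 was called in either direction (0%) by edgeR, with 115 at an unadjusted p under 0.05 and a smallest adjusted p of 0.51, and DESeq2 called none. A p that misses the threshold in 2 libraries does not show that the lineages act alike. After anti-OX40/CpG and PDOX, *Ifitm1* stood at 4.80 and 8.30 UMIs per 10000 in cytotoxic-type CD8 effectors. In the 23 and 21 CD8 effectors without cytotoxic genes it had 0. *Lgals3* stood at 5.22 and 7.36 against 2.79 and 2.74, and *Ctsd* at 11.4 and 12.6 against 3.96 and 6.71. *Nkg7* stood at 58.6 in both libraries against 18.6 and 36.3, and *Ifitm2* at 1.02 and 1.17 against 0.931 and 0.

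Between treatments, levels within the members were set side by side for the anti-OX40/CpG and PDOX libraries, over 1037 genes with at least 50 UMIs in both together. *Zeb2* had 53 UMIs in the PDOX members and none after anti-OX40/CpG, and the 95% interval of the ratio reached down to 5.04, or to 1.71 after thinning. In other CD4 effectors it had 4 and 2 UMIs, and in cytotoxic-type CD8 effectors it stood at 2.53 and 1.45 UMIs per 10000. *Ly6c2*, an activation antigen of T cells and monocytes, had 122 against 2 UMIs in the members (ratio 22.1, 95% interval 6.00 to 185) and 43 against 2 in the other CD4 effectors, but 16.4 and 11.8 UMIs per 10000 in the CD8 cells. *Bhlhe40*, a factor of cytokine production, followed with a ratio of 3.22 (1.47 to 8.33), *Ctbp1* with 3.02 (1.30 to 8.63) and *Zfp706* with 2.70 (1.34 to 6.17). After thinning, the intervals of *Bhlhe40* (0.923 to 246) and *Zfp706* (0.803 to 13.8) included 1. In the anti-PD-L1 and untreated members, *Zeb2* had 2 and 5 UMIs and *Ly6c2* 5 and 1.

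Genes with the lowest ratios also differed in the other subsets. *Gm10076* stood at 30.1 UMIs per 10000 in the members after anti-OX40/CpG and at 1.01 after PDOX (ratio 0.0337, 0.0209 to 0.0517), at 30.8 and 1.17 in the other CD4 effectors and at 29.5 and 1.17 in the CD8 cells. *Gm10073* (ratio 0.156), *Gm2000* (0.307) and *Tspan32* (0.337) were also low, and *Gm10073* and *Gm2000* were higher after anti-OX40/CpG in the other subsets too. Predicted genes of this kind can share reads with near-identical copies, so their counts are uncertain. These differences were thus also present in the other subsets of the same libraries.

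Some molecules of interest were scarce in the members at this depth. *Fasl*, which triggers death receptors, stood at 0.513 UMIs per 10000 in the members, 0.332 in the other CD4 effectors and 0.478 in the cytotoxic-type CD8 effectors, all libraries together. *Ifng* stood at 0.784, 0.622 and 1.19 and *Pdcd1* at 0.845, 0.664 and 0.781. *Tnfrsf4*, which encodes the OX40 receptor, stood at 0.875 in the members, 0.664 in the other CD4 effectors and 0.156 in the CD8 cells, and *Icos* at 1.81, 2.24 and 0.791. *Mki67*, a marker of dividing cells, had 1 UMI in all members. Other genes of the cell cycle list had more. After anti-OX40/CpG and PDOX, the members held *Top2a* at 0.243 and 0.572 UMIs per 10000 and *Pcna* at 1.21 and 1.63. *Tyms* stood at 0.243 and 0.308. Lower after PDOX were *Stmn1* (1.58 and 1.01), *Ccnb2* (1.09 and 0.0881), *Ccna2* (0.607 and 0) and *Birc5* (0.728 and 0.0881). So were *Cdk1* (0.607 and 0.0881), *Cks1b* (0.971 and 0.176), *Tubb5* (7.28 and 5.90) and *H2afz* (15.2 and 13.7). Several of these levels rest on few UMIs.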

How the data were processed

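Enriched blood T cells were sequenced with 10x Chromium 3′ chemistry, and the authors deposited raw UMI counts per gene and cell, made with Cell Ranger by the study's methods; the submitters' processing notes name mm10. The annotation is not given in the sources used here. The files held 5434 cells and between 2392650 and 4969885 UMIs per library. Genes of mitochondria, ribosomes and hemoglobin were excluded, and cells with 200 to 2900 genes were kept. The median kept cell held 1626 UMIs, so the lack of a UMI does not show the lack of a transcript. Binomial and Poisson intervals (95%) cover counting error only. Members, lists and comparisons were chosen with earlier results of these data known.

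Subsets were summed per library and compared with edgeR 4.0.16 in R 4.3.3 (TMM, filterByExpr, robust quasi-likelihood test, library as block). The record speaks of 1 mouse per library, so both subsets of a library share a mouse. P-values measure the spread between subsets of 2 libraries. The code was tested on simulated data. The genes named are those of the rule, the called genes or defining genes of the lists, the 8 largest called changes in each direction against other CD4 effectors and the 6 against CD8 cells, provided both libraries moved the same way, and the 5 highest and lowest PDOX to anti-OX40/CpG ratios. Others were named after their values were seen, and a few genes are not reported here. Scrublet (scanpy 1.11.5, Python 3.11.15) marked 30 of 5276 cells as doublets; none was removed, and 9 members lay among the highest 5% of scores. Of 16 barcodes found in more than 1 library, 1 belonged to a member. DESeq2 1.42.0, other filters, thinning and other limits of the rule were alternatives.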

Additional observations from a re-analysis of the deposited data

How the results depend on the processing

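The comparison of cytotoxic-type with other CD4 effectors called 7 genes. It called 7 with DESeq2 size factors, with all genes kept and without cells holding NK gene UMIs, 8 without the filter on low counts, 5 without the highest Scrublet scores and 9 with at least 2 cytotoxic UMIs. It called 1 by DESeq2 or without the library block, 0 with a minimum of 3 cells, 3 after thinning, 2 with at least 4 effector genes and 15 from the 2 subsets alone. Against CD8 effectors, 52 genes were called in the fit reported, 57 with DESeq2 size factors, 62 with all genes kept, 69 without cells holding NK gene UMIs, 55 without the highest Scrublet scores, 76 without the filter, 43 with a minimum of 3 cells, 32 from the 2 subsets alone, 25 with at least 2 *Cd4* UMIs, 17 with at least 2 cytotoxic UMIs, 16 after thinning, 12 with at least 4 effector genes and 10 by DESeq2 or without the block. The interaction gave 1 call without the filter and 0 otherwise with both libraries. With at least 2 *Cd4* UMIs, an alternative added after the data were seen, 3 genes differed between the CD4 subsets. Leaving out each library in turn from the 2-library fit left no residual degrees of freedom and was not run. With 3 libraries of at least 3 cells per subset, added after the data were seen, leaving each out gave 2 to 7 calls between the CD4 subsets (2 without anti-OX40/CpG, 2 without PDOX), 21 to 52 against CD8 (21 without anti-OX40/CpG, 31 without PDOX) and 0 to 4 for the interaction (1 without anti-OX40/CpG, 4 without PDOX). Of the called genes named by size or from a list, none changed direction in an alternative that tested it. Not each of these genes was tested under each alternative. *Ifitm1* and *Ass1* against CD8 effectors were not among them. For these genes, the tests under alternatives kept the call in 56 cases and lost it in 48 between the CD4 subsets. Against CD8 the counts were 252 and 153. The cause was not tested. The share of CD4 effectors after anti-OX40/CpG was 27.8% thinned and 28.8% with at least 2 cytotoxic UMIs, and after PDOX 46.2% and 45.6%; after anti-PD-L1 it was 14.3% with at least 2, in a range of 14.3% to 66.7%, and with at least 4 effector genes it was 66.7% (4 of 6 cells) against 64.1% after PDOX. PDOX stayed above anti-OX40/CpG under each of these limits, at 45.6% to 69.2% against 27.8% to 51.9%. Depth limits genes under about 1 UMI per 10000, such as *Prf1*.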
